A study of Arabidopsis thaliana with 36 samples.

Results

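WSD1 (AT5G37300), a wax ester synthase, and AT1G02190, a relative of the alkane-forming enzyme CER1, were followed in the shoot apical region of Arabidopsis thaliana. Each has 1 probe set on the ATH1 array, and these 2 of 22746 probe sets that are not controls were among the 14912 tested. Both were chosen by their measured values: each stood out for its higher signal in FRI flc-3 than in FRI over the days, and WSD1 also for its gain in FRI flc-3 between day 0 and day 7. Values of those comparisons are therefore given as a description, with no test. The flc-3 arrays entered neither comparison, but their results were known when the genes were chosen, and whether they also led to the choice is not known. The FRI arrays entered the first comparison, with equal weight on the 4 days. The p-values below may therefore not be independent of the choice. Both genes passed the filter for testing only through FRI flc-3 and flc-3 arrays, and the arrays of either line alone would have sufficed. On FRI arrays, 0 of 12 exceeded the limit of the filter for either gene.

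Plants of 3 lines were grown on soil in short days and then moved to long days. FRI flc-3 combines FRI-Sf-2, an FRI allele brought into Col from Sf-2, with flc-3, a fast-neutron mutant allele of FLC. The flc-3 line has the same mutant FLC in Col-0 without that FRI allele, and FRI has the Sf-2 allele in Col with FLC not mutated. The lines share the Col background, FRI activates the floral repressor FLC, and the labels call both lines with flc-3 early flowering. Each line was sampled after 0, 3, 5 and 7 long days with 3 arrays per day, 36 in all. The labels class FRI as vegetative throughout and FRI flc-3 as in transition to flowering from day 3. They class flc-3 as in transition on days 3 and 5, and at day 7 for replicate 1 only, with replicates 2 and 3 called vegetative. The labels do not say how many plants went into a sample or whether replicates were grown separately, so p-values measure only the spread between these arrays.

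The epidermis of a shoot covers itself with a cuticle of cutin and wax. Wax is built from very-long-chain acyl groups, which pass either into an alkane branch, where CER1 works with CER3, or into an alcohol branch that yields primary alcohols. WSD1 acts at the end of the alcohol branch, where it joins a primary alcohol to a fatty acid to give a wax ester. AT1G02190 belongs to the CER1 family of the alkane branch, and lies directly beside CER1 on chromosome 1.

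Signals are on the linear scale of the deposited arrays, whose medians lay between 40.4 and 43.1. The 40th percentile of an array, between 19.8 and 24.8, served as the limit below which a probe set is called dim here. Arrays of a group correlated with each other at 0.979 to 0.992 over the tested probe sets, lowest in FRI flc-3 at day 0. The number of arrays limits the precision. Signals of different probe sets are not comparable as levels, so each gene is set only against itself. The targeted gene FLC and the FRI gene are not reported here.

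Both wax genes were dim in every line in short days, reached their highest signals at day 7 in the 2 lines with a mutant FLC, and stayed dim in FRI. WSD1 read 11.8, 12.8 and 16.5 at day 0 on the FRI flc-3 arrays, 27.0, 21.7 and 23.5 at day 3, 58.9, 39.5 and 51.5 at day 5, and 220.3, 280.1 and 302.0 at day 7. In flc-3 it read 12.5, 14.1 and 11.7 at day 0, 18.4, 17.0 and 19.9 at day 3, 89.5, 100.4 and 95.5 at day 5, and 290.2, 238.0 and 331.5 at day 7. In FRI it read 8.31, 11.1 and 12.9 at day 0, 13.2, 5.55 and 15.3 at day 3, 11.2, 5.81 and 9.14 at day 5, and 3.55, 7.89 and 7.91 at day 7. The highest FRI array of any day lay below every day 3, day 5 and day 7 array of the other lines. WSD1 exceeded the 40th percentile on 8 of 12 FRI flc-3 arrays, on 6 of 12 flc-3 arrays and on 0 of 12 FRI arrays. The flc-3 replicate 1 of day 7, labelled as in transition, lay between the other two day 7 arrays of that line, which are labelled vegetative.

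AT1G02190 gave the same kind of picture at its own scale. On the FRI flc-3 arrays it read 11.6, 15.9 and 11.6 at day 0, 16.4, 21.7 and 15.9 at day 3, 27.5, 26.8 and 20.4 at day 5, and 113.4, 99.6 and 104.1 at day 7. In flc-3 it read 9.76, 13.6 and 7.74 at day 0, 18.7, 20.0 and 15.8 at day 3, 30.3, 32.5 and 34.1 at day 5, and 110.0, 120.5 and 113.6 at day 7. In FRI it read 5.08, 2.65 and 3.34 at day 0, 10.1, 6.89 and 9.65 at day 3, 7.51, 9.52 and 3.66 at day 5, and 5.36, 7.03 and 6.59 at day 7. Day 7 arrays of the lines with a mutant FLC stood apart from all others, and each was above the 40th percentile. That percentile was exceeded on 5 of 12 FRI flc-3 arrays, on 6 of 12 flc-3 arrays and on 0 of 12 FRI arrays.

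**Figure D1:**
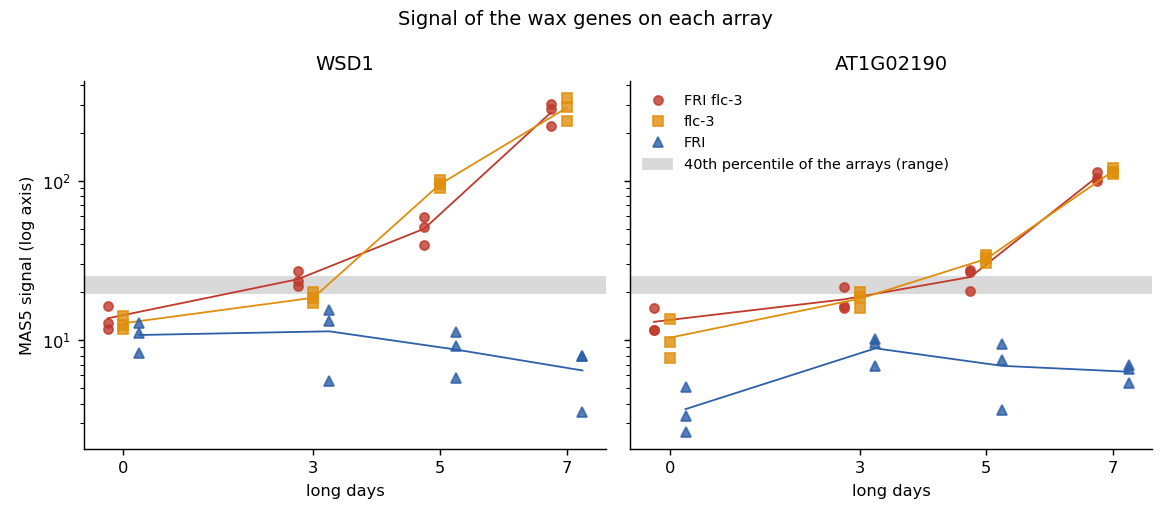
MAS5 signal (log axis) of WSD1 and AT1G02190 against long days, with 1 symbol per array and lines through the means of 3 arrays for FRI flc-3, flc-3 and FRI. The grey band spans the 40th percentiles of the arrays, and all 12 FRI arrays lie below it for both genes while all day 7 arrays of the other lines lie above it.

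The 12 groups were ordered by their mean signal. For WSD1, FRI flc-3 at day 7 averaged 267.5 ± 42.3 and flc-3 at day 7, the highest group, 286.5 ± 46.9 (SD, n = 3 each), and their ranges overlapped. Next were the day 5 groups, with 50.0 ± 9.76 in FRI flc-3 below 95.2 ± 5.46 in flc-3, and then the day 3 groups, with 24.1 ± 2.65 in FRI flc-3 above 18.4 ± 1.43 in flc-3. None of these 4 groups overlapped a neighbour in the order. The remaining 6 groups, FRI flc-3 and flc-3 at day 0 and all 4 days of FRI, ran from 13.7 ± 2.45 to 6.45 ± 2.51 with each neighbouring pair overlapping. Of the 11 neighbouring pairs in this order, 6 overlapped.

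For AT1G02190 the top of the order was the same. At day 7 the signal averaged 105.7 ± 7.07 in FRI flc-3, against 114.7 ± 5.36 in flc-3, with overlapping ranges. At day 5 it averaged 24.9 ± 3.93 in FRI flc-3, against 32.3 ± 1.90 in flc-3, which did not overlap (SD, n = 3 each). The day 3 ranges, with means of 18.0 ± 3.20 in FRI flc-3, against 18.2 ± 2.13 in flc-3, overlapped. The FRI flc-3 range at day 3 lay above that of FRI flc-3 at day 0. The flc-3 range at day 3 reached slightly into it, with a lowest array of 15.85 against a highest of 15.88. From FRI flc-3 at day 0 on, neighbours overlapped down to FRI at day 0 (3.69 ± 1.25), which had the lowest mean and did not overlap the group next to it. Here too 6 of the 11 neighbouring pairs overlapped.

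On the linear scale most of the gain fell between day 5 and day 7. WSD1 at day 5 had covered 14.3% of its gain between day 0 and day 7 in FRI flc-3, against 30.1% in flc-3. AT1G02190 had covered 12.8% in FRI flc-3, against 21.1% in flc-3. At day 3 the share was 4.09% in FRI flc-3, against 2.08% in flc-3, for WSD1, and 5.37% in FRI flc-3, against 7.50% in flc-3, for AT1G02190. The mean signal of WSD1 at day 7 was 5.35 times that at day 5 in FRI flc-3, against 3.01 times in flc-3. For AT1G02190 the factor was 4.25 in FRI flc-3, against 3.55 in flc-3. Between day 3 and day 5 the WSD1 mean differed by a factor of 2.08 in FRI flc-3, against 5.16 in flc-3. On the log2 scale the larger step of WSD1 in flc-3 was thus the earlier one, 2.27 between days 3 and 5 and 1.56 between days 5 and 7, while in FRI flc-3 the steps were 0.99 and 2.39.

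In flc-3, WSD1 and AT1G02190 were higher at day 5 and at day 7 than at day 0, and AT1G02190 also at day 3. WSD1 had a mean of 286.5 at day 7, against 12.8 ± 1.20 at day 0, a ratio of 22.5. On the log2 scale, with an offset of 1.62 added to each signal, the difference was 4.32 ± 0.24 (SE, 95% confidence interval 3.82 to 4.81, limma, Benjamini-Hochberg adjusted p = 1.3e-16). This placed WSD1 at rank 17 of the 14912 tested probe sets by size of gain. AT1G02190 had 114.7 at day 7, against 10.3 ± 2.95 at day 0, a ratio of 11.1 and a log2 difference of 3.31 ± 0.22 (2.86 to 3.76, adjusted p = 1.6e-14, rank 37). Both genes were higher on 3 of 3 arrays, and neither day 7 group overlapped day 0. Over all probe sets, 25.3% were called higher at day 7 in flc-3 and 29.7% had day 7 arrays that did not overlap day 0 on the higher side. A call or a gap between arrays was thus common in this comparison, and the size of the gain was not.

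At day 5 the log2 difference in flc-3 was 2.75 ± 0.24 for WSD1 (2.26 to 3.25, adjusted p = 2.7e-11) and 1.53 ± 0.22 for AT1G02190 (1.08 to 1.98, adjusted p = 9.0e-07), beside 23.6% of probe sets called higher and 29.8% without overlap on the higher side. At day 3 AT1G02190 rose by 0.75 ± 0.22 (0.30 to 1.20, adjusted p = 0.0128). WSD1 had 0.48 ± 0.24 (-0.01 to 0.98) with an adjusted p of 0.159 and an unadjusted p of 0.0558. The arrays of neither gene overlapped between day 3 and day 0, as held on the higher side for 18.6% of probe sets, and 12.7% were called higher. The day 3 call of AT1G02190 was lost without flc-3 replicate 3 of day 0 (adjusted p = 0.0902), without replicate 2 of day 3 (adjusted p = 0.0552), and when the fit was restricted to the flc-3 arrays of those days (adjusted p = 0.0605).

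In FRI both genes changed wholly among dim signals. WSD1 averaged 10.8 ± 2.30, 11.4 ± 5.14, 8.72 ± 2.73 and 6.45 ± 2.51 on days 0, 3, 5 and 7. Its log2 difference from day 0 was -0.01 at day 3 (adjusted p = 0.987) and -0.28 at day 5 (adjusted p = 0.430), each with an SE of 0.24. At day 7 it fell by 0.66 (-1.15 to -0.16, adjusted p = 0.0435), with 3 of 3 arrays below those of day 0, a gap that 17.9% of probe sets had on the lower side. AT1G02190 averaged 3.69 ± 1.25, 8.88 ± 1.74, 6.89 ± 2.98 and 6.33 ± 0.864 on the same days. It rose by 1.00 at day 3 (0.54 to 1.45, adjusted p = 0.00168), where 7.05% of probe sets were called higher, and by 0.64 at day 5 (adjusted p = 0.0282), where 15.2% were. The day 3 difference of AT1G02190 was larger in FRI than in FRI flc-3 (0.42) or flc-3 (0.75), a contrast that was not tested. At day 7 its difference was 0.60 (adjusted p = 0.0430), and 26.0% of probe sets were called in either direction in FRI at that day.

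These FRI calls depended on the settings. The day 3 call of AT1G02190 was lost at an offset of 32 (0.20, adjusted p = 0.0588) and when the fit was restricted to the FRI arrays of those days (adjusted p = 0.0872). With an offset of 16 the day 7 values became -0.26 for WSD1 and 0.18 for AT1G02190 and the day 5 value of AT1G02190 became 0.21, none past the threshold. The day 7 call of WSD1 was also lost without FRI replicate 2 or 3 of day 0 or replicate 1 of day 7 (adjusted p = 0.104, 0.171 and 0.327). Each day 5 or day 7 call of AT1G02190 was lost without any 1 of 4 arrays (replicates 2 and 3 of day 0, and replicates 1 and 2 of day 5 or 2 and 3 of day 7).

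**Figure D2:**
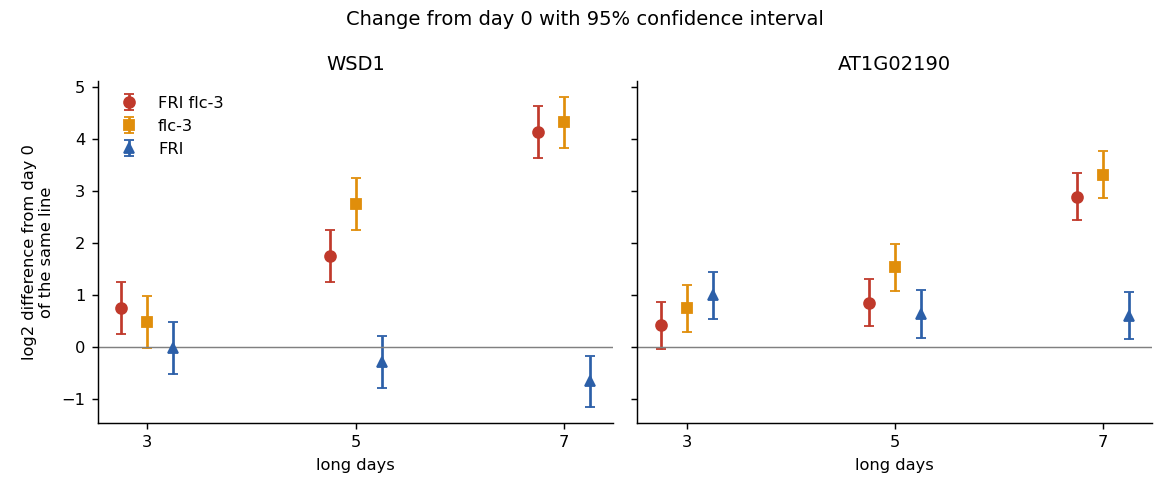
Log2 difference of WSD1 and AT1G02190 from day 0 of the same line against long days, with the 95% confidence interval of the limma fit. At day 7 the FRI flc-3 and flc-3 values lie between 2.89 and 4.32, and the FRI values are -0.66 for WSD1 and 0.60 for AT1G02190.

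The difference between the responses of flc-3 and FRI was tested directly. It uses no FRI flc-3 array, but it uses FRI arrays, which entered the choice of the genes. The day 7 response of WSD1 was larger in flc-3 than in FRI by 4.97 ± 0.34 on the log2 scale (4.27 to 5.67, adjusted p = 2.8e-13), rank 4 among 14912 probe sets. For AT1G02190 the responses differed by 2.71 ± 0.31 (2.07 to 3.35, adjusted p = 4.0e-08, rank 34). Such a difference was called in the higher direction for 8.98% of probe sets. The mean signal of WSD1 in flc-3 was 1.19, 1.62, 10.9 and 44.4 times that in FRI on days 0, 3, 5 and 7. For AT1G02190 these ratios were 2.81, 2.05, 4.69 and 18.1. Since the FRI signals are dim, the size of each ratio rests on low values, and the log2 differences shrink with a larger offset. At an offset of 32 the responses differed by 2.98 for WSD1 and 1.69 for AT1G02190, both still called.

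Set against FRI, FRI flc-3 gave values of the same size, which selected the genes and are a description only. WSD1 averaged 88.8 in FRI flc-3, against 9.32 in FRI, over the 4 days, a log2 difference of 2.21 ± 0.12 (SE, 12 arrays against 12). AT1G02190 averaged 40.4 in FRI flc-3, against 6.45 in FRI, a difference of 1.96 ± 0.11. By day, the ratio of FRI flc-3 to FRI was 1.27, 2.12, 5.73 and 41.5 for WSD1 and 3.53, 2.03, 3.61 and 16.7 for AT1G02190. WSD1 thus started with overlapping arrays on day 0 and parted from day 3 on, while AT1G02190 had no overlap on any of the 4 days. The share of all probe sets without overlap on the higher side was 6.57% on day 0, 9.40% on day 3, 13.8% on day 5 and 17.4% on day 7. The day 0 gap of AT1G02190, 11.6 to 15.9 in FRI flc-3 against 2.65 to 5.08 in FRI, lay among dim signals in both lines.

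Within FRI flc-3, the day 7 means of 267.5 for WSD1 and 105.7 ± 7.07 for AT1G02190 stood against 13.7 and 13.0 ± 2.48 at day 0. The ratios were 19.5 and 8.12, and the log2 differences 4.13 ± 0.24 and 2.89 ± 0.22. At day 5 the differences were 1.75 and 0.86, and at day 3 they were 0.75 and 0.42. The arrays of both genes lay above those of day 0 without overlap on all 3 later days, although AT1G02190 did so at day 3 by a margin that vanishes at 3 digits, with 15.9 as the lowest day 3 array and the highest day 0 array. Over all probe sets such a gap was found for 15.4% at day 3, 21.5% at day 5 and 23.4% at day 7.

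The lines with a mutant FLC differ in the FRI allele. This comparison rests on the FRI flc-3 arrays whose high values chose the genes, so its values are given with no test. Averaged over the 4 days, FRI flc-3 minus flc-3 was -0.15 ± 0.12 for WSD1 and -0.05 ± 0.11 for AT1G02190 on the log2 scale (SE). At day 7 it was -0.10 ± 0.24 for WSD1 and -0.12 ± 0.22 for AT1G02190. These values do not show the lines to be alike. The widest separation was at day 5, where WSD1 had 39.5 to 58.9 in FRI flc-3, against 89.5 to 100.4 in flc-3, a ratio of 0.525 and a log2 difference of -0.92 ± 0.24. AT1G02190 had 20.4 to 27.5 in FRI flc-3 at day 5, against 30.3 to 34.1 in flc-3, a ratio of 0.770. Neither gene overlapped between the lines on that day, as 15.8% of probe sets did not on the lower side, and this day was not tested.

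The 2 genes were much alike in their pattern over the 12 group means of log2 signal, with Pearson's r of 0.965 and Spearman's rho of 0.951. The groups share the arrays' scaling and the long-day series, both genes were chosen for their excess in FRI flc-3, and the correlation is a description. Among 7993 other named loci, AT1G02190 held rank 5 in likeness to WSD1, and WSD1 rank 2 in likeness to AT1G02190. An r of at least 0.9 was reached by 124 probe sets with WSD1 and by 85 with AT1G02190, so a pattern of this shape is shared by many genes. The loci most like WSD1 were AT5G41760 (r = 0.98), AT4G23820, AT1G75090, AT1G75640 and AT1G02190 (0.97 each). Those most like AT1G02190 were AT4G23820 (0.98), WSD1 (0.97), and BZIP61, a bZIP transcription factor, AT3G11580 and AT3G05900 (0.96 each).

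Likeness of pattern does not mean likeness of size. AT5G41760 ranged only from 144.2 to 179.4 in its 12 group means. BZIP61 had means of 53.2 in FRI flc-3, 61.6 in flc-3 and 6.43 in FRI at day 7, against 6.81, 5.05 and 3.03 at day 0. The most opposed loci were AT1G55690, AT1G68780 and AT1G05950 for WSD1, and TBL36, AT1G68780 and AT2G18360 for AT1G02190, all at -0.97. TBL36, of the trichome birefringence-like family, had 31.9 in FRI flc-3, 29.8 in flc-3 and 145.2 in FRI at day 7, against 112.8, 122.4 and 183.2 at day 0.

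**Figure D3:**
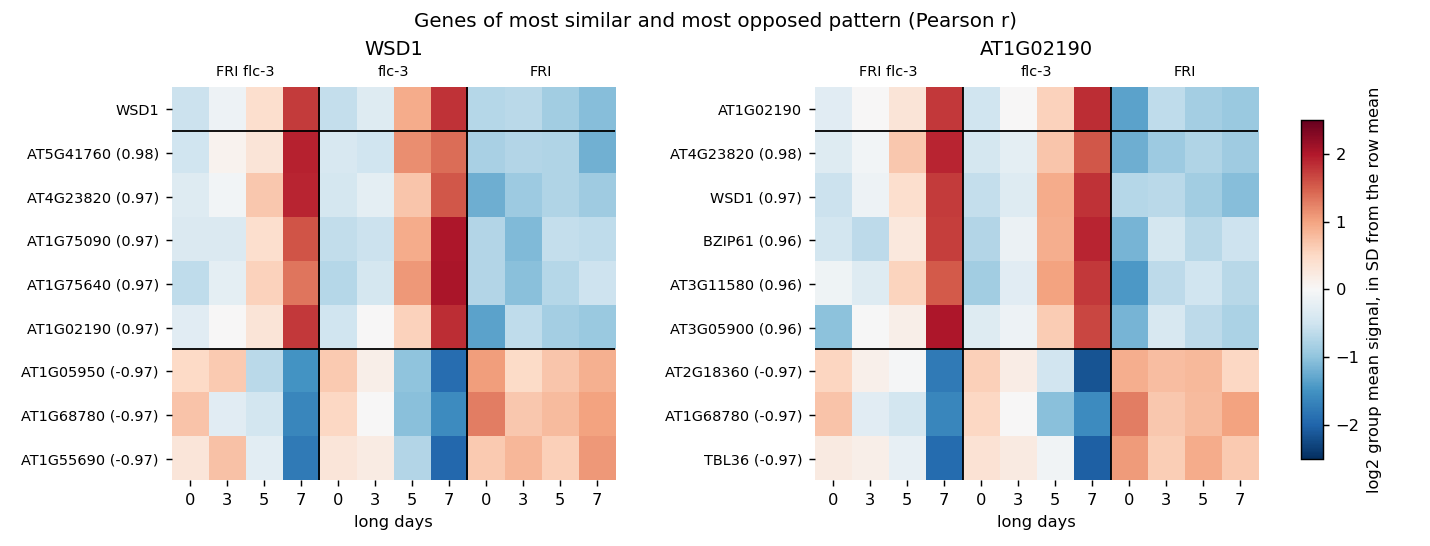
Heat map of the 12 group means (columns, by line and long days) for each wax gene and the loci of most similar and most opposed pattern (rows, Pearson's r in brackets), as log2 signal in SD from the row's mean. The similar loci have their highest values at day 7 in FRI flc-3 and flc-3, and the opposed loci their lowest values there.

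Few other genes of the cuticle could be followed. Of 63 other loci listed for wax synthesis, export and regulation, the wax ester synthase family, the CER1 family and cutin, 9 had a named probe set and 4 were tested, so the values speak for these 4 only. None of the 4 was called higher at day 7 in any line. In FRI flc-3, 1 of 4 was lower (median log2 difference -0.10, against -0.00 over all tested probe sets, 41.0% of which were called and 19.7% called lower). In flc-3, 2 of 4 were lower (median -0.38, against 0.03 over all, 46.2% called and 20.9% called lower). In FRI, 0 of 4 were called by limma, 0 of them at an unadjusted p under 0.05 (median 0.04, against 0.03 over all, 26.0% called and 12.1% called lower).

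CER26, which takes part in the elongation of very-long-chain acyl groups, fell at day 7 in flc-3 to 201.7 ± 3.17, against 340.9 ± 13.9 at day 0, a log2 difference of -0.75 ± 0.07 (adjusted p = 2.7e-10). In FRI flc-3 it fell to 253.1 ± 15.3 at day 7, against 318.2 ± 24.6 at day 0 (-0.33, adjusted p = 5.5e-04). In FRI the means were 331.4 ± 17.4 at day 7 and 345.1 ± 12.3 at day 0 (-0.06, adjusted p = 0.622). At day 5 CER26 was lower than at day 0 in each line, by -0.22 in FRI flc-3 (adjusted p = 0.0240), -0.41 in flc-3 (adjusted p = 3.7e-05) and -0.39 in FRI (adjusted p = 1.4e-04), and in FRI it was higher at day 7 than at day 5 (0.33, adjusted p = 0.0101). In FRI flc-3 and flc-3 the day 7 response of CER26 was opposite in sign to that of WSD1, and in FRI both were below 0. The response was lower in flc-3 than in FRI by a log2 difference of -0.69 ± 0.11 (adjusted p = 7.4e-06). AT5G12420, of the wax ester synthase family like WSD1, fell at day 7 in flc-3 to 21.6 ± 0.455, against 31.9 ± 4.77 at day 0 (-0.52 ± 0.18, adjusted p = 0.0145). It had 36.0 ± 2.58 at day 7 and 28.4 ± 1.86 at day 0 in FRI flc-3 (0.33, adjusted p = 0.141). In FRI it had 32.9 ± 3.97 at day 7 and 27.5 ± 6.56 at day 0 (0.27, adjusted p = 0.287). Its group means ran from 19.5, under the dim limit, to 36.0. The response of AT5G12420 differed between flc-3 and FRI by -0.79 ± 0.25 (adjusted p = 0.0238). The fall in flc-3 was not called without replicate 2 of day 0 (adjusted p = 0.0806), nor the difference without FRI replicate 3 of day 0, FRI replicate 1 of day 7 or flc-3 replicate 2 of day 0 (adjusted p = 0.102, 0.0663 and 0.0720).

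Over the responses of flc-3 and FRI, 2 of the 4 listed genes thus differed, both in the lower direction. Of all probe sets, 17.3% were called in either direction and 8.98% in the higher direction. The relatives AT1G72110, AT3G49190 and AT3G49210 of the wax ester synthase family were untested, with group means from 3.97 to 15.1 over all lines. AT2G37700, of the CER1 family, was also untested, with group means from 1.09 to 3.02. CER26-LIKE, a relative of CER26, was higher in FRI flc-3 (26.0) than in FRI (19.0) over the days by 0.44 ± 0.10 (adjusted p = 0.00105), and CER26 was lower by 0.18 (285.1 against 323.0, adjusted p = 4.5e-04), with 21.2% of probe sets called in either direction. The FRI group means of CER26-LIKE, from 15.7 to 22.7, lay under or within the range of the dim limit. Its difference ran from 0.19 to 0.50 under the alternatives run. DEWAX, a repressor of wax genes, was not called at day 7 in any line, with differences of -0.27 in FRI flc-3, -0.25 in flc-3 and 0.04 in FRI. Without replicate 1 of day 7 it was called in flc-3 (-0.42, adjusted p = 0.0244). Between FRI flc-3 and flc-3, none of the 4 was called by limma over the days (3 had an unadjusted p under 0.05), beside 4.24% of all probe sets in either direction. At day 7 CER26 and AT5G12420, 2 of 4, were higher in FRI flc-3 (0.32 and 0.69, adjusted p = 0.00883 and 0.0165), beside 3.90% called in either direction. These 2 day 7 calls were not rerun under the alternative settings.

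**Figure D4:**
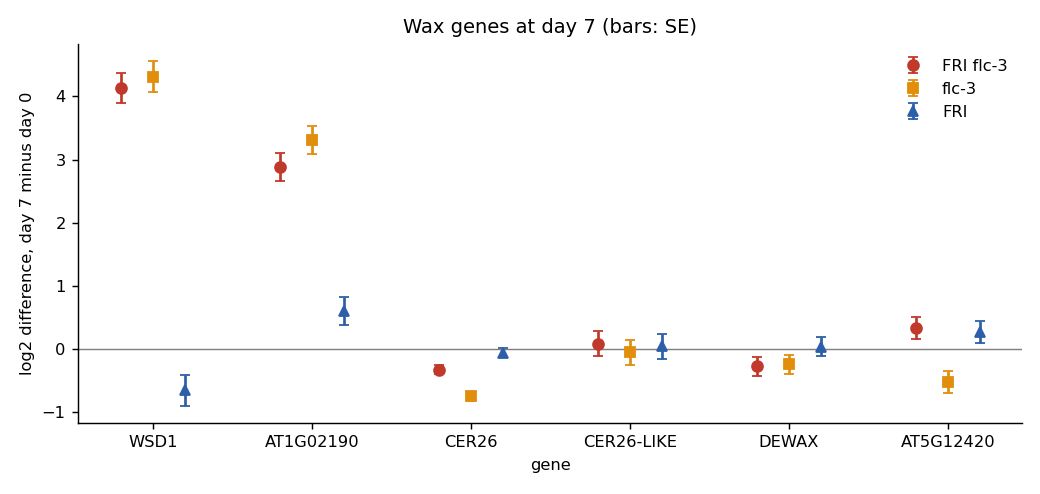
Log2 difference between day 7 and day 0 with its SE in FRI flc-3, flc-3 and FRI, for WSD1, AT1G02190 and the 4 other tested cuticle genes. WSD1 and AT1G02190 lie at 2.89 or above in FRI flc-3 and flc-3, while the other 4 lie between -0.75 and 0.33 in all lines.

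The samples are pieces of tissue, in which more cells of a type and more RNA per cell cannot be told apart. Of 41 loci listed as markers of the apex and of other cells it could hold, 7 had a named probe set and 5 were tested, and the list for epidermis, where wax is made, had no named probe set. UFO, a gene of young floral meristems, was the 1 tested of 11 floral markers. It had 15.8 in FRI flc-3 at day 7, against 2.52 at day 0, and 24.7 in flc-3, against 1.34, while its FRI means were 2.73 at day 7 and 2.10 at day 0. It exceeded the 40th percentile on the 3 flc-3 arrays of day 7 alone and so passed the filter only through the group where it is highest, and no test of it is given. Leaf mesophyll genes were lower at day 7 in 3 of 3 tested members (RCA, PRK and LHCB4.1) in each line, with medians of -0.48 in FRI flc-3, -0.75 in flc-3 and -0.29 in FRI, beside 19.7%, 20.9% and 12.1% of all probe sets called lower. The tapetum gene AMS had group means of only 1.54 to 5.52. LAS, listed for the shoot meristem, had group means of 25.1 to 38.1, above the 40th percentile of every array. The stem cell gene CLV3, of the same list, was untested, with group means of 8.39 to 16.3 and 0 arrays above that percentile. Whether the makeup of the tissue has a part in the signals of WSD1 and AT1G02190 was not tested.

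The genes next to each wax gene on the chromosome changed much less. AT5G37290 and AT5G37310, on either side of WSD1 on chromosome 5, had day 7 differences between -0.01 and 0.41 over the 3 lines. AT5G37290 was called in FRI flc-3 (0.41, adjusted p = 0.0030), and AT5G37310 in FRI flc-3 (0.40, adjusted p = 6.6e-04) and in FRI (0.25, adjusted p = 0.0390). AT1G02180, beside AT1G02190, had 0.21 in FRI flc-3, 0.20 in flc-3 and 0.20 in FRI, none called. AT1G02160, further out on the same side, was called in FRI flc-3 (0.27, adjusted p = 0.0019) and in flc-3 (0.36, adjusted p = 5.9e-05). In FRI it was not called (0.13, adjusted p = 0.194). CER1, the neighbour of AT1G02190 on its other side, was not analysed here, and whether the AT1G02190 probe set also detects CER1 transcripts was not tested.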

How the data were processed

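RNA of 36 apical samples was labelled with biotin and hybridised to 1 ATH1 array each. The deposited signal intensity of a probe set is linear and comes from the authors' MAS5 step, per the submitters' processing notes, and the MAS5 version and scaling target are not given in the sources used here. The 2% trimmed mean was between 100.007 and 100.009 on every array, so no further scaling was applied. Arrays were grouped by the labels' line and long days.

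Of 22810 probe sets, 64 are controls and were not used. Tests covered each probe set that exceeded its array's 40th percentile on at least 3 arrays. Signals were transformed as log2(signal + 1.62), the offset being the 10th percentile of all values, so log2 differences of dim genes are understated. limma 3.58.1 in R 4.3.3 fitted 12 group means (24 residual degrees of freedom, eBayes with an intensity trend). Tests were two-sided, with Benjamini-Hochberg adjustment over all 14912 tested probe sets of a comparison, and a call is an adjusted p under 0.05. The procedure was tested on simulated data.

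The genes, lists and comparisons were chosen with earlier results of these data known. Named genes are the 2 wax genes, every tested locus of the cuticle and marker lists, the 5 most similar and 3 most opposed loci by Pearson's r, and the neighbours on the chromosome. The annotation table lists 14016 probe sets, 13513 with 1 gene and 503 with several. Of those with 1 gene, 13436 matched a RefSeq locus (TAIR10.1, used for names and neighbours only) and 77 did not. Alternatives were offsets of 1, 16 and 32, quantile normalization, a common 75th percentile, a stricter filter (60th percentile) or none, the replicate number as a block, an eBayes step with no trend, fits restricted to the arrays of a comparison, and fits that each omit 1 array.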

Additional observations from a re-analysis of the deposited data

Results flagged for a closer look

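The day 7 responses of 2 wax genes and of 2 listed cuticle genes differed between flc-3 and FRI by the test of the difference itself. For WSD1 and AT1G02190 this test uses FRI arrays that entered their choice, so it may not be independent of that choice. The log2 difference between the responses, flc-3 minus FRI, was 4.97 for WSD1 and 2.71 for AT1G02190, which rose in flc-3. It was -0.69 for CER26 and -0.79 for AT5G12420, which fell in flc-3. None of these values was tested for a cause.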

How the results depend on the processing

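The day 5 and day 7 calls of WSD1 and AT1G02190 in flc-3, and the differences between the responses of flc-3 and FRI, held under all alternatives run. The day 7 value in flc-3 ran from 2.82 to 4.44 for WSD1 and from 1.79 to 3.49 for AT1G02190. Offsets of 16 and 32 lowered the described values, as a larger offset does for dim signals. FRI flc-3 minus FRI over the days became 1.45 and 1.11 for WSD1 and 1.07 and 0.75 for AT1G02190, and at day 7 it became 3.65 and 2.95 for WSD1 and 2.45 and 1.84 for AT1G02190. The day 7 difference within FRI flc-3 became 3.25 and 2.70 for WSD1 and 2.07 and 1.61 for AT1G02190.

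Other calls were lost under some settings. In flc-3 at day 3, AT1G02190 (0.75) was not called from only the arrays compared, and ran from 0.59 to 0.93 without 1 array. In FRI at day 3, AT1G02190 was not called at an offset of 32 (0.20) or from only the arrays compared (1.00). At day 5 it was not called at offsets of 16 (0.21) and 32 (0.12) or from only the arrays compared (0.64), and ran from 0.41 to 0.95 without 1 array. At day 7 it was not called at offsets of 16 (0.18) and 32 (0.10), with a common 75th percentile (0.58), without the filter or from only the arrays compared (0.60 each), and ran from 0.46 to 0.78 without 1 array. WSD1 in FRI at day 7 was not called at offsets of 16 (-0.26) and 32 (-0.15), and without the filter, without the trend or from only the arrays compared (-0.66 each), and ran from -0.81 to -0.36 without 1 array.

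Values near 0 changed sign. WSD1 in FRI at day 3 was 0.017 and 0.014 at offsets of 16 and 32 and 0.10 after quantile normalization (-0.25 to 0.37 without 1 array). WSD1 between FRI flc-3 and flc-3 at day 7 was -0.22 to 0.034 without 1 array. CER26-LIKE after quantile normalization was 0.062 in flc-3 at day 7 (-0.13 to 0.031 without 1 array) and 0.0089 in the difference between responses (-0.24 to 0.11), and AT5G12420 was 0.018 in FRI flc-3 minus FRI (-0.058 to 0.044). Without 1 array, CER26-LIKE at day 7 was -0.17 to 0.18 in FRI and -0.012 to 0.25 in FRI flc-3. DEWAX was -0.070 to 0.10 in FRI at day 7 and -0.0024 to 0.087 in FRI flc-3 minus FRI. The number of probe sets called between FRI flc-3 and flc-3 at day 7 was 581, 207 from only the arrays compared, and 297 to 649 without 1 array (297 without FRI flc-3 replicate 3, 384 without flc-3 replicate 1 and 341 without flc-3 replicate 3, all of day 7). The difference between responses of AT5G12420 after quantile normalization was -0.69 and no longer called. The cause of these shifts was not tested.

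In the pairs of groups checked, the replicate numbers showed no pairing of the samples. Arrays of the same number correlated at -0.07 to 0.08 in their deviations from the group means, below the limit of 0.1. Only groups of day 0 and day 7 were checked. With the replicate block, 6880 probe sets were called in flc-3 at day 7, against 6883 without it, and no call of WSD1 or AT1G02190 changed. For the 4 listed cuticle genes the alternatives covered 3 kinds of comparison only. These were day 7 minus day 0 in each line, the difference between responses, and FRI flc-3 minus FRI over the days. None of those calls changed with the block.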
